A study of Mus musculus with 5 samples.

Results

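The genes described here encode splicing factors and other RNA-binding proteins, taken by symbol from the GENCODE M21 basic annotation of the mouse genome (mm10). The symbols start with Srsf, Hnrnp, Rbfox, Elavl, Mbnl, Ptbp, Nova or Sf3, start with Rbm followed by a digit, or equal Qk, and of the Celf family Celf2 to Celf6 were taken. They gave 100 of 21851 protein-coding genes. The rule on symbols used no measured value, but it was set with earlier results of these data known. Chromatin immunoprecipitation sequencing for ZFP24, a zinc finger transcription factor also known as ZFP191 and ZNF24, had been done on brain cells of C57BL/6 mice at postnatal day 7. The 2 deposited peak lists covered oligodendrocyte progenitor cells (OPC) isolated by immunopanning, and oligodendrocytes (OLG) grown from such cells in 5 days of culture with triiodothyronine (40 ng/ml) and no PDGF. The 5 libraries were wild-type OPC, Zfp191-null OPC, wild-type OLG, Zfp191-null OLG and an input pooled from all of these cells, with 1 library each. In each cell type the wild-type and the null library name the same peak list, which was read as that of the wild-type library. The null and input libraries had no peak list of their own to analyse. The number of mice or cultures behind a library is not stated in the labels.

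The OPC list held 4643 peaks of 209 bp and the OLG list 1752 peaks of 221 bp. Neither list carried a score or a tag count, so library depth is unknown and the number of genes near a peak depends on depth and calling as well as on binding. With 1 library in a group no difference between OPC and OLG has a replicate check, and no test was made. Intervals are exact (Clopper-Pearson) 95% intervals that cover counting error over genes or peaks only. The lists hold no expression values, so the labelled cell types could not be checked against their markers.

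Splicing removes introns from a transcript. SR proteins, encoded by the Srsf genes, mostly bind exons and favour their inclusion, hnRNP proteins often oppose them, and the SF3a and SF3b complexes are parts of the U2 snRNP that recognises the branch point. PTB, CELF, RBFOX, ELAVL, MBNL, NOVA and QKI proteins bind short motifs in RNA and set cell-type-specific exon choices. QKI, encoded by Qk, is the best known of them in oligodendrocytes, where its loss in the quaking mouse leaves axons poorly myelinated.

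A gene was counted when the centre of a peak lay within 10 kb of the start of 1 of its protein-coding transcripts. In OPC, 23 of the 100 genes, or 23% (15.2 to 32.5), had such a peak, against 12.6% of all 21851 protein-coding genes, a ratio of shares of 1.82 (1.2 to 2.57). In OLG, 11 of the genes, or 11.0% (5.62 to 18.8), had a peak, against 6.43% of all genes, a ratio of 1.71 (0.875 to 2.93). A peak in at least 1 list was found at 30 of the genes, or 30.0% (21.2 to 40.0), against 17.0% of all genes. The member share in OPC stood above the share of all genes by more than the counting interval, and the share in OLG did not. Against genes of like GC content at the starts the OPC share did not either. When each peak was given to the gene with the nearest start alone, 22 members kept a peak in OPC (ratio 2.16) but 6 in OLG (ratio 1.16), since another gene's start was nearer to 6 of the 12 OLG member peaks. The median distance from a member's starts to the nearest OPC peak was 73448 bp, against 129458 bp over all genes, and to the nearest OLG peak 256714 bp against 334652 bp.

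**Figure D1:**
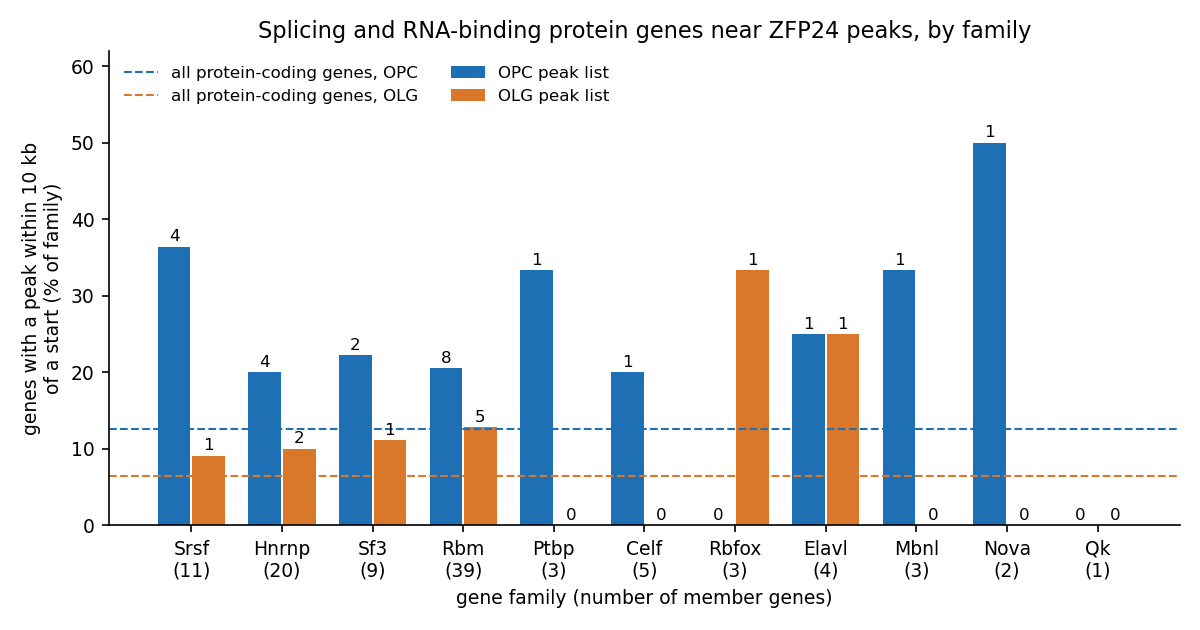
Bars give the percentage of each gene family with a ZFP24 peak centre within 10 kb of a start in OPC (blue) and OLG (orange), with the number of such genes above each bar and the family size under it. Dashed lines mark all protein-coding genes at 12.6% and 6.43%, and the tall bars of small families rest on 1 gene each.

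Peaks were spread over most families. Of the 11 families, 9 had an OPC peak at some member and 6 an OLG peak, and the interval of each family's share held the background share in 11 of 11 families for both lists. Small families have intervals that would hold almost any share, such as 1.26 to 98.7% for the 2 Nova genes in OPC. The intervals therefore cannot show whether peaks were concentrated in a family. The Srsf, Hnrnp and Sf3 genes, which encode general splicing factors, had an OPC peak at 10 of 40, or 25% (12.7 to 41.2). The 39 Rbm genes had 8, or 20.5% (9.30 to 36.5). The 18 genes of the Celf, Rbfox, Elavl, Mbnl, Nova and Qk families had 4, or 22.2% (6.41 to 47.6). In OLG the counts of these 3 groups were 4 of 40, 5 of 39 and 2 of 18. The 3 Ptbp genes were in none of these groups, with an OPC peak at 1 (33.3%, 0.840 to 90.6) and an OLG peak at 0. The differences between families were not tested, and their intervals overlap widely.

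GC content at the starts moved with the presence of a peak over all genes. In the quartile of genes with the lowest GC content (500 bp around the starts, averaged over starts) 3.28% had an OPC peak, and in the quartile with the highest 18.8%. In OLG these shares were 1.37% and 11.1%. Members had a median of 61.8% GC at their starts against 57.6% over all genes, and 46 of them fell in the third quartile and 32 in the highest. Given the share of its own GC quartile for every member, 15.6 members would have an OPC peak, where 23 had, and 8.24 an OLG peak, where 11 had. Since there are 100 members, 15.6 is also a percentage, and it lies inside the interval of the OPC share (15.2 to 32.5), so the OPC share was not above that of genes of like GC content by more than the counting interval. In OPC the lowest quartile had a peak at 2 of 8 members (25%, 3.19 to 65.1) against 3.28% of all its genes. In the third quartile 14 of 46 members (30.4%, 17.7 to 45.8) had a peak against 16.6% of all genes of that quartile. In the highest quartile 5 of 32 members (15.6%, 5.28 to 32.8) had one. Among members the median was 60.6% for those with an OPC peak, 62.3% for those with an OLG peak and 61.8% for those with neither. The median member had 2 protein-coding starts, as had the median gene, but the medians hide a difference. The 100 members had 274 starts and the 21851 genes 41408, so members had more starts per gene. The median was 4.50 for the Celf, Rbfox, Elavl, Mbnl, Nova and Qk genes. More starts give a gene more room for a peak within 10 kb. With only the 5' end of each gene record, the ratio of shares was 1.75 in OPC and 1.64 in OLG. The part of GC content in the result was not tested beyond these values.

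**Figure D2:**
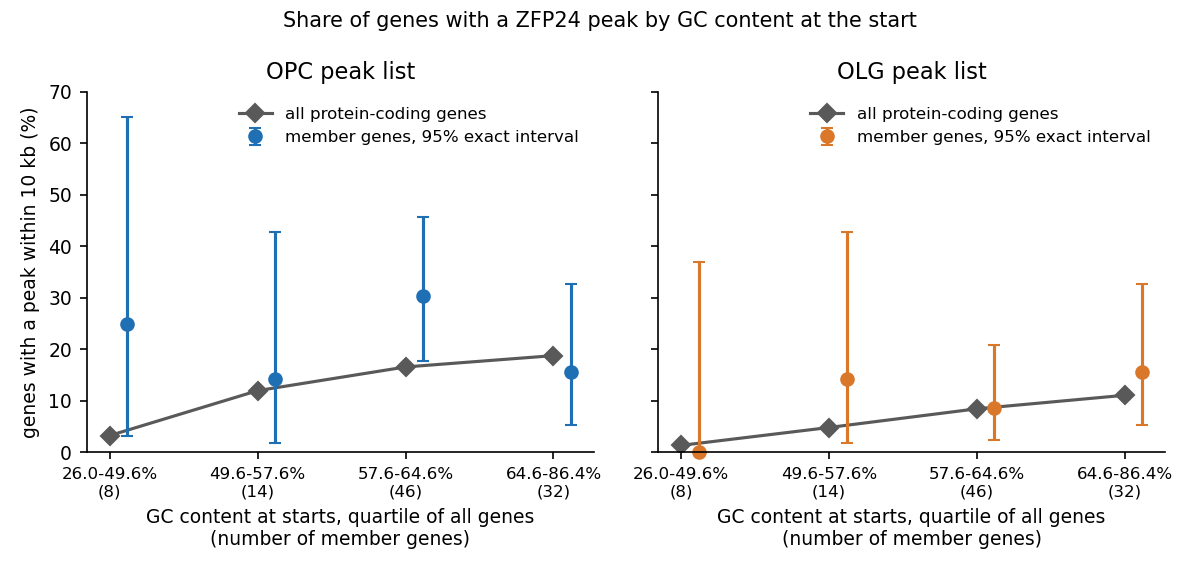
Points give the percentage of member genes with a ZFP24 peak within 10 kb of a start, with exact 95% intervals, in quartiles of GC content at the starts, and grey diamonds the percentage over all protein-coding genes of each quartile. The grey line climbs from 3.28% to 18.8% in OPC and from 1.37% to 11.1% in OLG, and the interval of the third OPC quartile, at 30.4%, ends just above it.

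Among the SR protein genes, Srsf1, Srsf2, Srsf6 and Srsf11 had an OPC peak. Srsf6, which encodes the SR protein SRp55, had its peak 18 bp downstream of a start, in the first coding exon (chr2:162931575-162931783). Srsf11 encodes SRp54, and its peak lay 236 bp downstream in an intron. The start of the neighbouring gene Lrrc40 was also within 1 kb of that peak. The Srsf1 peak, at the gene of the prototype SR protein SF2/ASF, lay 468 bp downstream in an intron and had 76.5% GC. Srsf2, which encodes SC35, had a peak 997 bp downstream in its coding exon. A second OPC peak, 9198 bp from Srsf2, lay 425 bp from the start of Jmjd6, a gene for a hydroxylase that modifies splicing factors. The OLG peak of Srsf2 was 512 bp upstream and nearer to the start of Mfsd11, at 214 bp. The other 7 Srsf genes had no peak within 10 kb in either list.

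In the hnRNP family 4 genes had an OPC peak, 2 others an OLG peak and none of the 20 a peak in both (0 to 16.8%), where 2.10% of all genes had one. Hnrnpa1 encodes one of the most abundant hnRNP proteins, and its OPC peak lay 27 bp downstream of a start, in the first coding exon (chr15:103240417-103240625). That promoter is shared with Cbx5, the gene of heterochromatin protein HP1 alpha, whose start was within 1 kb. Hnrnph3 had a peak 129 bp downstream in an intron, with the start of Pbld2 within 1 kb. The Hnrnpc peak was intergenic, 2974 bp upstream, and the gene encodes a protein that coats nascent transcripts. The peak of Hnrnpf was intergenic too and lay past the 3' end of the gene, 2300 bp from the start of a short transcript, with 38.5% GC. In OLG, Hnrnph1 had a peak 55 bp downstream of a start in an intron and Hnrnpdl 427 bp downstream in a coding exon.

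Genes of the SF3 complexes had a peak within 1 kb of a start at 1 of 9 members, which is near the shares of all genes (8.15% in OPC and 4.04% in OLG). Sf3b4, which encodes the SF3b subunit SAP49, had an OPC peak 370 bp downstream in an intron. The OPC peak counted for Sf3b5 was 8796 bp upstream, in intergenic sequence. The OLG peak counted for Sf3a2 was 9868 bp away in a coding exon of Jsrp1, whose start was nearer. Sf3b1, the gene of the largest SF3b subunit and a frequent target of mutation in blood cancers, had its nearest OPC peak 101850 bp away and its nearest OLG peak 379018 bp away.

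The Rbm genes, 39 of the 100 members, held 3 of the 4 members with a peak in both lists. That was 7.69% of the family (1.62 to 20.9), and the interval holds the 2.10% of all genes. At Rbm25, Rbm48, Rbm39, Rbm17, Rbm43 and Rbm5 the OPC centre was less than 1 kb from the start. The distances were 1 bp upstream at Rbm25, 18 bp upstream at Rbm48, 23 bp upstream at Rbm39 and 72 bp downstream at Rbm17. The centre at Rbm48 lay in an intron of a neighbouring gene, whose start was also within 1 kb. The Rbm43 peak lay 147 bp downstream and the Rbm5 peak 230 bp downstream. Rbm5, Rbm25 and Rbm39 encode splicing regulators, and the RBM17 protein, also called SPF45, takes part in 3' splice site choice. In OLG, Rbm6 had a peak 280 bp downstream and Rbm39 184 bp downstream. Rbm18 had one 150 bp downstream, nearer to the start of Mrrf at 72 bp.

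A peak in both lists was found at 4 members, or 4% (1.10 to 9.93), against 2.10% of all genes. They were Srsf2, Rbm39, Rbm15b and Rbm8a. This was 17.4% of the members with an OPC peak and 36.4% of those with an OLG peak, where the shares over all genes were 16.6% and 32.6%. The peaks themselves overlapped at 2 of the genes, Rbm15b and Rbm8a, so that 2 of 26 OPC member peaks (7.69%, 0.946 to 25.1) met an OLG peak, against 7.78% of the OPC peaks within 10 kb of any start. At Rbm39 the centres were 380 bp apart, and at Srsf2 the nearest peaks lay on opposite sides of the start. The Rbm8a peaks were 5322 bp (OPC) and 5362 bp (OLG) downstream of the Rbm8a start. Both lay past the 3' end of Rbm8a, in the 5' untranslated region of another gene whose start was nearer. Rbm8a encodes Y14, a core protein of the exon junction complex. When only the nearest start counted, Rbm15b and Rbm39 were the members left in both lists.

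At Rbm15b, whose protein helps to recruit the m6A methyltransferase to RNA, the shared site was in the coding sequence. The OPC centre was 1119 bp and the OLG centre 1044 bp downstream of the start, and GC content was 77.0% and 72.0%. A second OLG peak, 4403 bp upstream of Rbm15b, lay 148 bp from the start of Manf, the gene of a secreted neurotrophic factor. The 81 bases around each of the shared centres, and 63 bases at the Rbm39 OPC peak that lie outside untranslated sequence, are shown because these 2 genes held a peak in both lists by either way of assigning peaks. They are given 5' to 3' on the strand of the gene (minus strand for both) from GRCm38. Capitals mark a CCGGAAG motif, read here on its other strand, and an ATGGCG motif.
Rbm15b OLG, chr9:106886344-106886424: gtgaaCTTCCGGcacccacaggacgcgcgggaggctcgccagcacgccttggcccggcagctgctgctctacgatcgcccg
Rbm15b OPC, chr9:106886269-106886349: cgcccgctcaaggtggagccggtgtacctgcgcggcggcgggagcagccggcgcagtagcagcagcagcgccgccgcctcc
Rbm39 OPC, chr2:156179581-156179643: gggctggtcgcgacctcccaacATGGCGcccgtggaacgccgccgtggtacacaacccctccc
None of these windows holds a TCAT repeat.

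**Figure D3:**
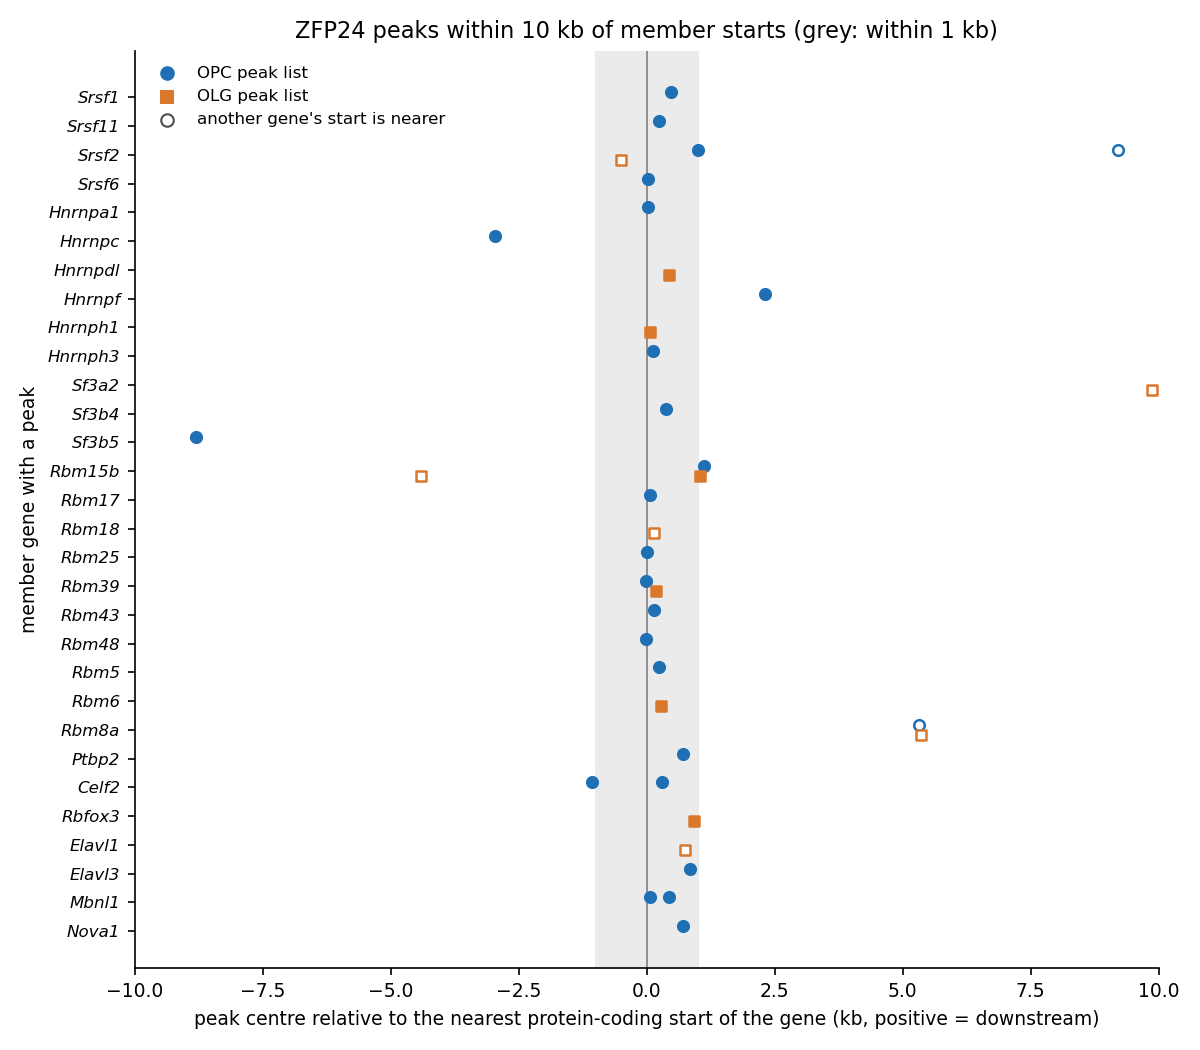
Each row is 1 of the 30 member genes with a ZFP24 peak, and points give the distance of the peak centre from the nearest start of that gene in kb (circles OPC, squares OLG, open where another gene's start is nearer). Most points lie in the grey zone within 1 kb of the start and to its right.

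Peaks near these genes sat close to and mostly downstream of the start. Of the 26 OPC member peaks, 19 (73.1%, 52.2 to 88.4) were within 1 kb of a member start, against 69.6% of all OPC peaks within 10 kb of a start, and in OLG 8 of 12 (66.7%) against 71.1%. Counted over genes, 18 members, or 18% (11.0 to 26.9), had an OPC peak within 1 kb against 8.15% of all genes, and 8, or 8% (3.52 to 15.2), an OLG peak against 4.04%. Of the peaks within 1 kb, 16 of 19 were downstream in OPC (84.2%, 60.4 to 96.6) and 7 of 8 in OLG (87.5%), where the shares over all such peaks were 69.9% and 75.4%. Introns held 15 of the 26 OPC centres, coding exons 4, 5' untranslated regions 4 and intergenic sequence 3. In OLG, introns held 5 of 12 centres, coding exons 4 and 5' untranslated regions 3. Another gene's start was also within 1 kb at 4 of the 19 OPC peaks (21.1%, 6.05 to 45.6) and 3 of the 8 OLG peaks (37.5%, 8.52 to 75.5), against 10.8% and 7.64% over all such peaks. A peak at such a start cannot be assigned to either gene. The shares of peaks differ from those of all peaks by less than their counting intervals, except for the shared starts in OLG, which rest on 3 peaks. A peak near the starts of more than 1 gene can enter the member set through any of them. A higher share of shared starts among member peaks is thus partly built into the counting, and no conclusion is drawn from it. Over genes, the OPC share within 1 kb was above that of all genes by more than its counting interval, and the OLG share was not. Genes of like GC content were not compared at 1 kb.

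Tandem TCAT, the repeat that ZFP24 is known to bind, was not found in the peaks near the starts of these genes. A run of at least 12 bases in the 200 bp around the centre was found in 0 of 26 OPC member peaks, which allows a share of up to 13.2%, against 6.56% of all OPC peaks within 10 kb of a start. In OLG it was found in 0 of 12, which allows up to 26.5%, against 4.07%. At these numbers the absence cannot be told from the background share. The flanking windows 2 kb to each side held no such run in either set of member peaks. A shorter run of 8 bases was at the OLG peak of Hnrnpdl. Median GC content was 61.2% in the OPC and 65.2% in the OLG member peaks, against 59.5% and 65.5% in all peaks within 10 kb of a start.

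Among the regulators of cell-type-specific splicing, Mbnl1 and Celf2 had OPC peaks at internal starts of long genes, and Nova1, Elavl3 and Ptbp2 near the 5' end. Mbnl1 encodes a splicing regulator that is sequestered in myotonic dystrophy. It had OPC peaks 438 bp and 60 bp downstream of different starts, at 28.9 kb and 56.4 kb from the 5' end of its 157 kb gene. Celf2 had OPC peaks at 625 kb and 787 kb of a 970 kb gene, 301 bp downstream of 1 start and 1068 bp upstream of another. Nova1, first known as a target of antibodies in a paraneoplastic movement disorder, had an OPC peak 698 bp downstream. Elavl3, which encodes the neuronal RNA-binding protein HuC, had 1 at 845 bp, and Ptbp2, the gene of the neuronal form of PTB, 1 at 711 bp. In OLG, Rbfox3, which encodes the neuronal marker NeuN, had a peak 930 bp downstream of a start. Elavl1, the gene of the widely expressed HuR, had one 753 bp downstream that was nearer to the start of Ccl25, at 573 bp.

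Qk had no peak within 10 kb of either of its 2 protein-coding starts. Its nearest OPC peak was 123484 bp away and its nearest OLG peak 49762 bp upstream. Ptbp1, which represses neuronal exons in other cells, had its nearest OPC peak 31781 bp away and its nearest OLG peak 199211 bp away. Mbnl2 lay 170927 bp from an OPC peak and 1615179 bp from an OLG peak. For Rbfox2, which is expressed in many tissues, the distances were 29707 bp and 687514 bp. The 6 members on the X and Y chromosomes had no peak within 10 kb in either list. The share over genes of all chromosomes was 17.0%, and the share over X and Y genes alone was not computed. In all, 70 of the 100 members had no peak within 10 kb.

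Peaks in a gene body more than 10 kb from each of that gene's starts were found at 4 members in OPC, or 4%, against 4.58% of all genes, and at 1 member in OLG, or 1.00%, against 1.52%. All of them were in the Celf, Rbfox and Nova families, which hold long genes, with a median length of 136300 bp over the 18 Celf, Rbfox, Elavl, Mbnl, Nova and Qk genes against 17380 bp over all genes. Per Mb of whole gene, these 18 had 1.54 such OPC peaks (7 peaks in 4.55 Mb, at 4 genes) and all genes 1.15. That length includes sequence within 10 kb of a start, where such a peak cannot lie, so the values do not correct for gene length. The other 82 members had 0 in 2.20 Mb. Most of them are short, with a median of 11474 bp for the Srsf, Hnrnp and Sf3 genes and 14237 bp for the Rbm genes, which leaves little room for such a peak. A run of TCAT of at least 12 bases was in 4 of the 7 OPC peaks (57.1%, 18.4 to 90.1), against 20.0% of such peaks over all genes, which is inside the interval. In OLG the 2 peaks, both in Celf4, held none.

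The 4 repeat sites lay in introns of Rbfox1, Rbfox3, Nova2 and Celf4. Rbfox1 is among the longest mouse genes, at 1526 kb, and its site was 34.2 kb from the 5' end of the gene and 429570 bp from the nearest protein-coding start. It held a tract of 42 bases and a second tract beside it. The Rbfox3 site was 11939 bp downstream of a start with a tract of 16 bases and a second one, and the Nova2 site 15761 bp downstream with 24 bases. The Celf4 tract was 12 bases long, 206431 bp downstream of a start. Another site, in an intron of Jsrp1, was 11237 bp from a start of Sf3a2 and thus just outside the 10 kb limit. Its 42-base tract was at an OPC peak and at an OLG peak whose centre was 11239 bp away. It was the only repeat site within 50 kb of a member start, or inside a member gene, in the OLG list, where OPC had 6 such sites, the last being 41116 bp upstream of Elavl3.

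Of the 6 OPC sites, 4 tracts are printed to show the repeat where a peak was called on it. Each is given 5' to 3' with 15 bases on either side from GRCm38, on the strand that reads TCAT, with the tract in capitals.
Rbfox1, plus strand, chr16:5919504-5919575: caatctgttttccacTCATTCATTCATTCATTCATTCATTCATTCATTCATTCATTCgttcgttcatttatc
Rbfox3, plus strand, chr11:118749122-118749167: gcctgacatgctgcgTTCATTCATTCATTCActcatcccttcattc
Nova2, minus strand, chr7:18941643-18941696: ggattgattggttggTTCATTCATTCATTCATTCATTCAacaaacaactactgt
Sf3a2 neighbour, minus strand, chr10:80809891-80809962: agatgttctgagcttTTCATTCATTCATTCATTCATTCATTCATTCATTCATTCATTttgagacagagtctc
The Rbfox1 tract and the tract near Sf3a2 are the longest shown, and the Rbfox3 tract is the shortest.

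**Figure D4:**
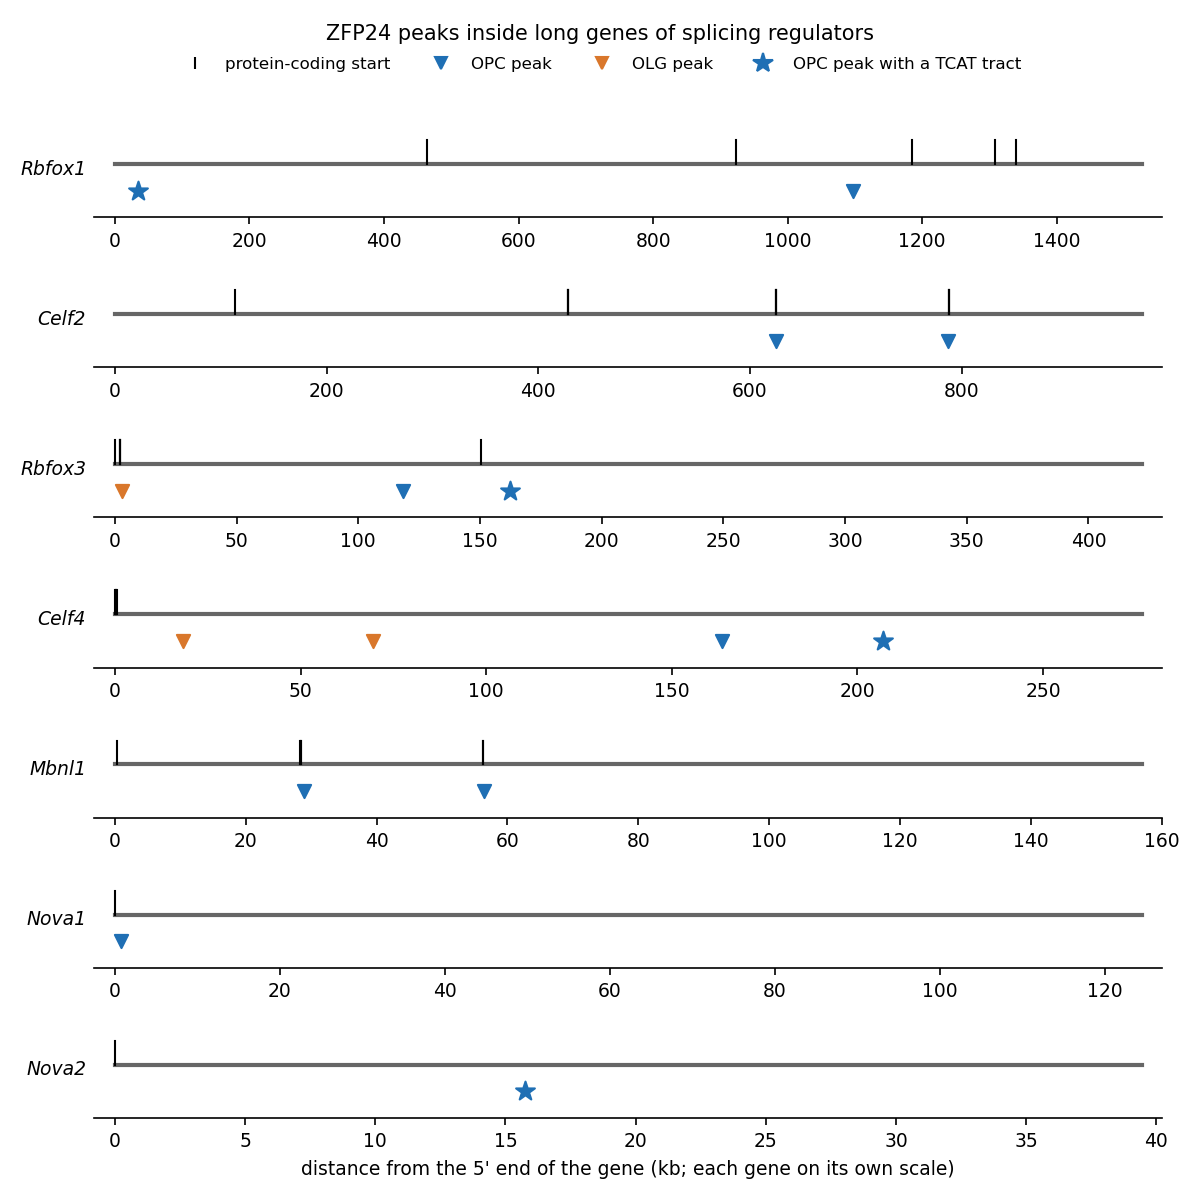
Horizontal lines are 7 long member genes drawn from the 5' end in kb, each on its own scale, with black ticks at protein-coding starts, triangles at peak centres (blue OPC, orange OLG) and stars at OPC peaks with a TCAT tract. Triangles of Celf2, Mbnl1 and Nova1 sit at starts, and the stars of Rbfox1, Rbfox3, Celf4 and Nova2 lie away from them.

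Most TCAT tracts in these genes had no peak. The bodies of 27 members held 53 tracts of at least 12 bases, and 6 of the tracts (11.3%) were at an OPC peak, meaning that they came within 100 bp of its centre, and 0 at an OLG peak. Over all protein-coding genes these shares were 5.65% of 7498 tracts and 0.894%. Among members, 2 of 35 tracts of 12 to 15 bases were at an OPC peak (5.71%) and 2 of 4 tracts of 32 bases or more (50%), where the shares over all genes were 2.30% and 25.2%. All 4 of these long tracts were in Rbfox1, and the 2 at a peak were at the same peak, so the 50% describes a single site. The 6 tracts fell at 4 peaks, since those of Rbfox1 and Rbfox3 held 2 each. Rbfox1 had 11 tracts, 2 of them at the peak, and Celf2 had 4 tracts up to 31 bases long with none at a peak. Qk had a single tract of 13 bases with no peak.

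A list of 90 other splicing and RNA-binding genes that the symbols did not take gave similar counts. In OPC 26 of them, or 28.9% (19.8 to 39.4), had a peak within 10 kb, in OLG 9, or 10% (4.68 to 18.1), and in both lists 6, or 6.67%. The same backgrounds of 12.6%, 6.43% and 2.10% apply, and the median GC content at their starts was 64.2%. Among those with a peak in both lists were Prpf38b, Cpeb3, Luc7l3, Snrpd1 and Tia1. Prpf38b had peaks at 175 bp in OPC and 70 bp in OLG. The peaks of Cpeb3, a cytoplasmic polyadenylation factor, were 457 bp and 426 bp upstream. Luc7l3 had them at 5940 bp and 166 bp, Snrpd1, the gene of an Sm core protein, at 3 bp and 7793 bp, and Tia1 at 3718 bp and 7271 bp. Other genes close to an OPC peak were Ewsr1, at 6 bp, and Tardbp, which encodes TDP-43, at 48 bp. In OLG the peak of Pcbp1 was at 50 bp.

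Few members lay just past the 10 kb limit. In OPC 5 members had their nearest peak between 10 and 20 kb from a start, the 4 nearest being Sf3a2 at 11237 bp, Rbfox3 at 11939 bp, Srsf9 at 13995 bp and Rbm42 at 14485 bp. The peaks counted there for Srsf9 and Rbm42 lay 6 bp and 192 bp from the starts of Gatc and Haus5. In OLG there were 2, Hnrnpk at 12785 bp and Celf4 at 17822 bp. With limits of 2, 5 and 50 kb the ratio of the member share to that of all genes was 2.08, 2.01 and 1.45 in OPC and 1.99, 1.70 and 1.27 in OLG.

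**Figure D5:**
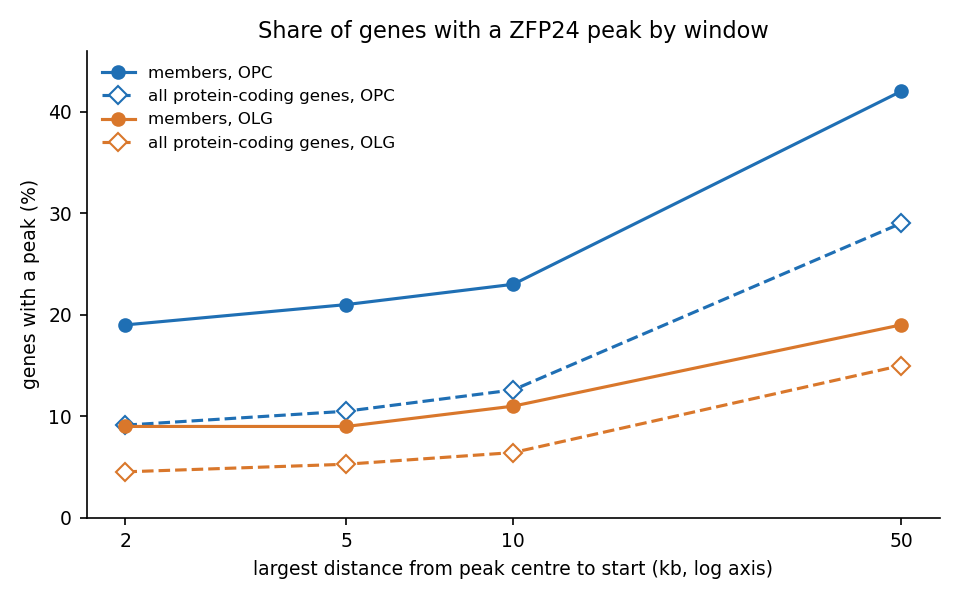
Lines give the percentage of member genes (filled points) and of all protein-coding genes (open points) with a ZFP24 peak centre within 2, 5, 10 or 50 kb of a start, on a log axis. Members lie above all genes at each limit in both lists, at 23% against 12.6% in OPC and 11.0% against 6.43% in OLG for 10 kb.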

How the data were processed

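ZFP24 ChIP-seq peak positions were used as deposited by the authors, in 4 columns with no score or tag count. Per the labels' protocols reads were aligned to mm10, and the submitters' processing notes name BWA and HOMER 4.8.3. The sources used here do not state the caller options or threshold, or whether peaks were called against the null or the input library. Peaks were compared with GENCODE M21 basic and the GRCm38 sequence of RefSeq, and 0 peaks ran past a chromosome end. All starts of protein-coding transcripts on chromosomes 1 to 19, X and Y were used. Calculations used Python 3.11.15, numpy 2.4.6 and scipy 1.17.1. The steps were tested on simulated data: 200 of 200 peaks planted near starts of the 21851 genes and 200 of 200 planted repeats were found.

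No test was made, since each group had 1 library. Members and lists were chosen with earlier results of these data known. All members with a peak within 10 kb were to be named, with 11 others set by name, the 4 nearest beyond 10 kb and, of the other genes, those in both lists and the 4 nearest. Some of the genes this rule takes, and some neighbouring genes, are not reported here. Exons, introns and untranslated regions are those of protein-coding transcripts, coding exons first. Other windows, starts, peak edges, nearest-gene assignment, the lower-numbered part of each list and repeat lengths were tried.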

Additional observations from a re-analysis of the deposited data

How the results depend on the processing

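The ratio of the member share to that of all genes stayed above 1 under all 8 other settings in both lists, from 1.45 to 2.16 in OPC and from 1.16 to 1.99 in OLG. With a window of 50 kb, 42 of the 100 members had an OPC peak, against 29.0% of all genes, and 19 an OLG peak, against 15.0%. In both lists 10 had one, and that share over all genes was not computed. In that window the repeat was in 4 OPC and 1 OLG member peaks. The 40 Srsf, Hnrnp and Sf3 genes then counted 18 in OPC and 8 in OLG, and the 39 Rbm genes 14 in OPC. The 18 Celf, Rbfox, Elavl, Mbnl, Nova and Qk genes counted 8 and 4, and the 90 other RNA-binding genes 42 and 21. The same shares of all genes, 29.0% in OPC and 15.0% in OLG, apply to these counts. Family and other-gene windows were chosen after seeing the data. Without the Rbm genes, 15 of 61 members had an OPC peak, 6 an OLG peak and 1 both, because fewer genes were counted. The first 2 are 24.6% against 12.6% of all genes and 9.84% against 6.43%. With the nearest start alone, 6 of all 100 members had an OLG peak and 2 both, because peaks nearer to another gene were dropped. The OLG share of all genes was then 5.17%. In the lower-numbered 50% of each list, 7 had an OLG peak, against 3.74% of all genes, and 2 both. That number in the peak name has no stated meaning. The repeat was in 1 OLG member peak at a minimum of 8 bases, and 5 OLG member peaks were within 500 bp of a start. No paired analysis was possible because each group had 1 library. Leaving out a replicate was not possible for the same reason, and the precision is limited by the number of genes and peaks.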

Other observations

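Short promoter motifs were counted on both strands in the 200 bp around member starts (274 windows, several for most genes, so that windows of 1 gene overlap) and around all protein-coding starts (41408 windows). ATGGCG was in 21.5% of the member windows and 11.0% of all, TCTCGCGA in 3.65% and 0.997%, and CCAAT in 30.3% and 25.3%. GGGCGG, the GC box, was in 40.9% and 40.0%, and CCGGAAG in 9.85% and 9.08%. Members were lower for TGACGTCA, at 0.730% against 1.78%, and for GCGCATGC, at 2.19% against 2.39%. The peaks themselves held these motifs at other shares. GGGCGG was in 9 of 26 OPC member peaks (34.6%, 17.2 to 55.7) against 24.7% of all OPC peaks within 10 kb of a start, and in 4 of 12 OLG member peaks against 32.9%. ATGGCG was in 3 of 26 OPC member peaks (11.5%) against 8.84%, and in 0 of 12 in OLG against 9.58%. TCTCGCGA, TGACGTCA and GCGCATGC were in 0 of the 26 and 0 of the 12. All of these shares lie within the counting intervals of the member peaks, and a match of letters is a description of the sequence.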
